A study of Homo sapiens with 9 samples.

Results

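The ERK feedback genes described here are 10 genes whose products are mainly known to slow signalling from the EGF receptor to the MAP kinase ERK. These are the phosphatase genes DUSP1, DUSP4, DUSP5, DUSP6 and DUSP7, the Sprouty genes SPRY1, SPRY2 and SPRY4, and the Spred genes SPRED1 and SPRED2. They were chosen by gene symbol, and all 10 were found among the 16199 genes listed for at least 1 library. RNA was sequenced from HaCaT cells, an immortalized line of human keratinocytes, labelled as wild type and kept in serum-free medium in every group. Post-confluent cells were left untreated, were given EGF, the natural ligand of the EGF receptor, at 10 nM, or were given bleogen pB1, a cactus peptide described as an agonist of the same receptor, at 1 µM. Each group had 3 replicates and both treatments lasted 24 h, so that the data show the state at that time and not the first hours of the response. The sample titles give no time for the untreated cells. HaCaT is a single immortalized line, and nothing in the sources states that the replicates were separate cultures, so p-values measure the spread between these samples, which may be technical.

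When EGF binds its receptor, adaptor proteins activate RAS, and RAS starts the chain of kinases RAF, MEK and ERK. Active ERK enters the nucleus and raises the transcription of genes that include its own inhibitors, which is why transcripts of DUSP and SPRY genes are commonly used as a readout of the pathway. DUSP proteins are dual-specificity phosphatases that remove phosphate from both the threonine and the tyrosine that switch a MAP kinase on. DUSP6 and DUSP7 act on ERK in the cytoplasm, DUSP5 acts on ERK in the nucleus, and DUSP1 and DUSP4 are nuclear and also accept the stress kinases JNK and p38. Sprouty and Spred proteins act further upstream, on the steps between receptor, RAS and RAF, and Spred proteins bring the RAS inactivator neurofibromin to the membrane.

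The 250 bases before the start of transcription were read from the RefSeq promoter table (GRCh38.p14), which held 12 such windows for 8 of the 10 genes and none for DUSP4 and DUSP5. The windows shown are those of 4 genes that were higher in EGF-treated cells and, for comparison, 1 of the 3 windows of SPRY2, the one that held motifs, a gene that was not called. Each is written 5′ to 3′ on the strand of its gene. Capitals mark an ETS motif (CCGGAA), an AP-1 site (TGANTCA) or a cyclic AMP response element (CRE, TGACGTCA), searched on both strands. They also mark the shorter core of the CRE (TGACG, which also lies within the CRE). ETS factors and the FOS proteins of AP-1 are known targets of ERK, and the CRE is bound by CREB.
DUSP6, chr12:89352502-89352751, minus strand: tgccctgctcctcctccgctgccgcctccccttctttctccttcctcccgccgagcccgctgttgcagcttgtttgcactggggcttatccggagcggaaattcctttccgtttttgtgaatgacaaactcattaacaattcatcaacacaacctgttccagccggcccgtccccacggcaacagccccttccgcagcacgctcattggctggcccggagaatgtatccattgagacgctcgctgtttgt
DUSP7, chr3:52056572-52056821, minus strand: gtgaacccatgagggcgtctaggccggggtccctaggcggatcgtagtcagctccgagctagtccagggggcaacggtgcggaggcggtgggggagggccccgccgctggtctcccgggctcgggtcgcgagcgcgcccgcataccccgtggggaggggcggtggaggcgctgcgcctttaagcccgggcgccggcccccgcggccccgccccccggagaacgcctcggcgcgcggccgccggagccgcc
SPRY4, chr5:142324248-142324497, minus strand: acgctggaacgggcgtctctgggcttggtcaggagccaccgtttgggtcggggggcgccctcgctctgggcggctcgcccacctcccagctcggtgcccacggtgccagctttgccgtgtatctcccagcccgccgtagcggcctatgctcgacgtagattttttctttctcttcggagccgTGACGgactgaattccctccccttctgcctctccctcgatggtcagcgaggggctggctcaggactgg
DUSP1, chr5:172771196-172771445, minus strand: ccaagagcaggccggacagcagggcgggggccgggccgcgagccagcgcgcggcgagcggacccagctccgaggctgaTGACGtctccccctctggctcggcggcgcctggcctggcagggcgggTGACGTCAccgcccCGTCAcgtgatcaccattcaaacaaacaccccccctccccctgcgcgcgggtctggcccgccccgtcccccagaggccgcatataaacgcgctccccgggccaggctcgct
SPRY2, chr13:80341127-80341376, minus strand: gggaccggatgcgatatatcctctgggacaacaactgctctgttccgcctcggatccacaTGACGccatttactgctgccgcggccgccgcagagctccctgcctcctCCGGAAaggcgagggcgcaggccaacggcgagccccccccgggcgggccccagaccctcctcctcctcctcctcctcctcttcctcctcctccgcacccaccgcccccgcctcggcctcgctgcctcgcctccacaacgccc
The windows of DUSP6 and DUSP7 held none of these motifs and are therefore all in lower case. The shorter letters GGAA, which lie within the ETS motif, were not searched for, and the DUSP6 window holds them. The window of DUSP1 held the full CRE, 125 to 118 bases before the start, a motif found in 1.65% of all 35116 windows of the table. The CRE core was in 3 of the 12 windows (25%, of DUSP1, SPRY2 and SPRY4), against 21.2% of all windows. The ETS motif was in 2 of the 12 (16.7%, of SPRY1 and SPRY2, both not called in EGF-treated cells), against 14.5% of all. The AP-1 letters were in 0 of the 12 windows, against 6.57% of all windows. The SP1 letters GGGCGG, which are not capitalised, were in 6 of the 12 windows (50%, of DUSP1, DUSP7, SPRED1, SPRY1, SPRY2 and SPRY4), against 42.6% of all. The shares of the CRE core, the ETS motif and SP1 were thus near those of all windows. By the GENCODE 44 annotation, the DUSP6 window lies opposite an exon of a non-coding RNA, the SPRY4 window overlaps an exon of another SPRY4 transcript, and the other windows shown overlap no annotated exon. A match of letters is a description of the sequence and does not show that a factor binds there.

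EGF-treated cells carried more RNA of 6 of the 10 feedback genes, while 15.1% of all genes tested were called higher. After 24 h of EGF, SPRY4 rose 4.73-fold, DUSP6 4.20-fold, DUSP5 4.06-fold, DUSP4 3.15-fold, DUSP7 2.88-fold and DUSP1 1.42-fold against untreated cells. The call of DUSP1 held in only 8 of 17 alternative settings. In bleogen pB1-treated cells no feedback gene was called, and of all genes tested 0.218% were called higher and 1.26% lower. DUSP1 had its 3 values above those of untreated cells and DUSP6 below, patterns found in 14.4% and 14.7% of all genes. A gene was called when the edgeR quasi-likelihood test, adjusted by the Benjamini-Hochberg method over the 12394 genes tested, gave an adjusted p of at most 0.05 and the log2 fold change (log2FC) was at least 0.5 in size. All 10 feedback genes passed the count filter. Levels below are given as CPM, counts scaled to library size with TMM factors, when a gene is compared between groups, and as FPKM, which is divided by gene length, when genes are compared with each other.

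**Figure D1:**
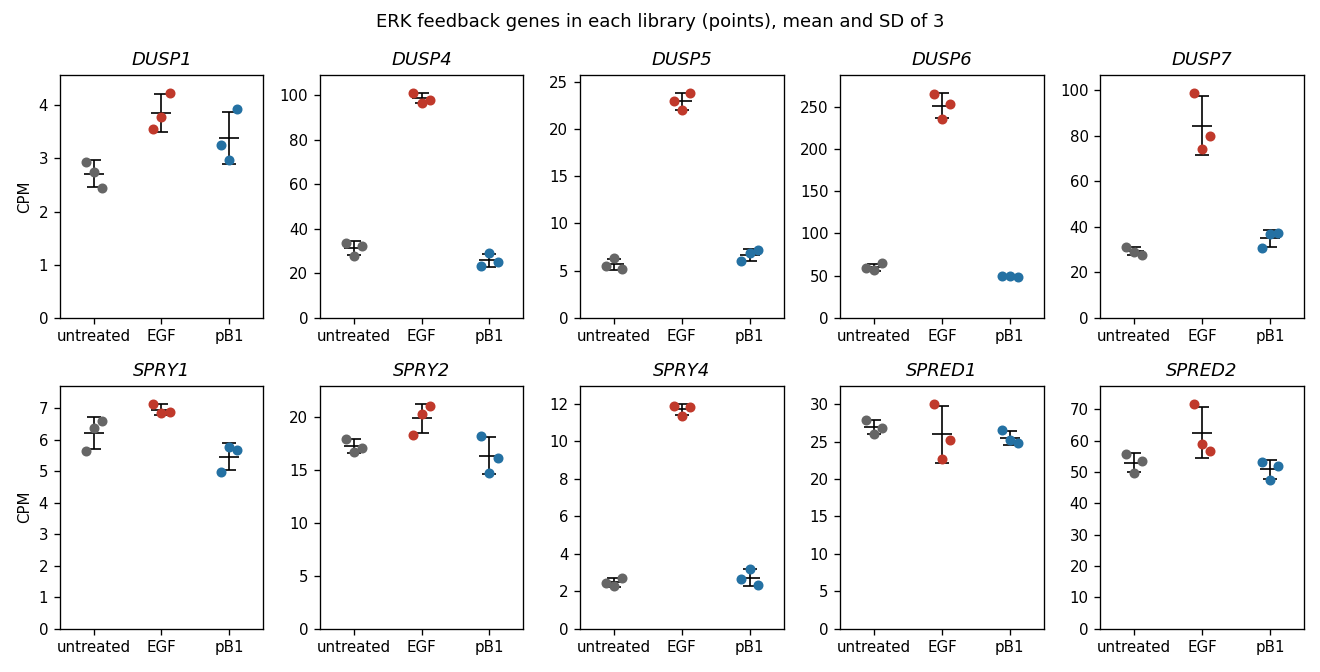
Level (CPM, vertical axis from 0, own scale for each gene) of the 10 feedback genes in the 3 untreated, 3 EGF-treated and 3 bleogen pB1-treated (pB1) libraries; points are libraries, and bars are the mean and SD of 3. The EGF-treated libraries stand far above both other groups for DUSP4, DUSP5, DUSP6, DUSP7 and SPRY4, whereas the groups lie close together for SPRED1, SPRY1 and SPRY2.

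DUSP6, the cytoplasmic phosphatase selective for ERK, had the highest mean FPKM of the feedback genes in every group. Its level was 59.0, 56.3 and 64.3 CPM in the untreated libraries 1 to 3, 265.4, 235.5 and 253.1 CPM in the EGF-treated ones and 49.7, 49.1 and 48.65 CPM in the bleogen pB1-treated ones. All 3 EGF-treated libraries were above all others, and all 3 bleogen pB1-treated libraries were below the untreated ones. The log2FC of EGF against untreated was 2.07 (SE 0.07, edgeR with Benjamini-Hochberg adjusted p = 1.6e-10). The log2FC of bleogen pB1 against untreated was −0.28 (SE 0.07, 95% interval −0.43 to −0.14). The edgeR adjusted p of this decrease was 0.035, so it passed the test but was smaller than the fold limit and was not called. Over 17 alternatives its log2FC lay between −0.33 and −0.23 and the adjusted p between 0.0065 (DESeq2) and 0.15. In edgeR the adjusted p was 0.14, 0.051 and 0.12 without untreated replicate 1, 2 or 3, and 0.11 and 0.15 without bleogen pB1 replicate 2 or 3.

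DUSP7, the close relative of DUSP6 with the same substrate and location, was measured at 31.3, 29.0 and 27.7 CPM in untreated libraries, 98.97, 74.2 and 79.96 CPM in EGF-treated libraries and 30.6, 36.9 and 37.2 CPM in bleogen pB1-treated libraries. EGF-treated library 1 was the highest, and the lowest EGF-treated library was still above every library of the other groups. EGF raised DUSP7 by a log2FC of 1.52 (SE 0.11, edgeR adjusted p = 1.6e-07). In bleogen pB1-treated cells the log2FC was 0.25 (SE 0.11, edgeR adjusted p = 0.21), and library 1 lay within the untreated range.

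DUSP5, the nuclear phosphatase specific to ERK, was measured at 5.45, 6.29 and 5.21 CPM in untreated cells, 22.99, 22.0 and 23.8 CPM in EGF-treated cells and 5.97, 6.82 and 7.21 CPM in bleogen pB1-treated cells. The EGF-treated libraries did not overlap with the others, and their log2FC against untreated was 2.02 (SE 0.11, edgeR adjusted p = 1.5e-08). The bleogen pB1-treated and untreated libraries overlapped, with a log2FC of 0.24 (SE 0.12, edgeR adjusted p = 0.26).

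DUSP4, a nuclear phosphatase that acts on ERK and JNK, was measured at 33.55, 27.9 and 32.4 CPM in untreated libraries, 101.1, 96.7 and 98.1 CPM in EGF-treated libraries and 23.5, 29.1 and 24.96 CPM in bleogen pB1-treated libraries. The EGF-treated libraries were close together and above all others, with a log2FC of 1.66 (SE 0.09, edgeR adjusted p = 1e-08). In bleogen pB1-treated cells 2 of the 3 libraries were below the untreated range, and the log2FC was −0.28 (SE 0.09, edgeR adjusted p = 0.10).

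DUSP1, an early-response phosphatase with a broad range of MAP kinase substrates, was among the least abundant feedback genes. It was measured at 2.94, 2.75 and 2.44 CPM in untreated libraries, 3.55, 3.78 and 4.24 CPM in EGF-treated libraries and 3.25, 2.97 and 3.93 CPM in bleogen pB1-treated libraries. These levels rest on 51 to 88 counts per library. The untreated libraries were the lowest 3 of the 9, the treated groups overlapped with each other, and with upper-quartile scaling the bleogen pB1-treated libraries overlapped with the untreated ones. The log2FC of EGF against untreated was 0.51 (SE 0.18, edgeR adjusted p = 0.021), just past the fold limit. This call held in 8 of 17 alternatives, and in edgeR it was lost without untreated replicate 2 (log2FC 0.52, adjusted p = 0.052), untreated replicate 3 (0.44, adjusted p = 0.079) or EGF replicate 3 (0.44, adjusted p = 0.083). Against untreated, the log2FC of bleogen pB1 was 0.32 (SE 0.18, edgeR adjusted p = 0.31).

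SPRY4, an inhibitor of RAS activation, had the largest log2FC in edgeR, with a 95% interval that overlapped that of DUSP6. It had 2.41, 2.26 and 2.72 CPM in untreated cells. It reached 11.9, 11.3 and 11.8 CPM in EGF-treated cells and was at 2.63, 3.20 and 2.34 CPM in bleogen pB1-treated cells. The EGF-treated libraries were tightly grouped above all others, whereas the bleogen pB1-treated and untreated libraries overlapped. The log2FC was 2.24 (SE 0.15, edgeR adjusted p = 7e-08) for EGF and 0.14 (SE 0.17, edgeR adjusted p = 0.65) for bleogen pB1, against untreated. The untreated level rests on 46 to 57 counts, and on the log2(FPKM + 1) scale, which compresses low levels, the EGF log2FC was 1.14, below those of DUSP6 (1.95), DUSP5 (1.59), DUSP4 (1.45) and DUSP7 (1.36).

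SPRY2 and SPRY1, the other Sprouty genes, were not called. SPRY2 was measured at 17.9, 16.7 and 17.0 CPM in untreated, 18.3, 20.2 and 20.99 CPM in EGF-treated and 18.2, 14.7 and 16.1 CPM in bleogen pB1-treated libraries. Its log2FC with EGF was 0.21 (95% interval −0.01 to 0.42, edgeR adjusted p = 0.083) and with bleogen pB1 −0.08 (−0.29 to 0.14, edgeR adjusted p = 0.69). SPRY1 was measured at 5.64, 6.39 and 6.59 CPM in untreated, 7.15, 6.85 and 6.88 CPM in EGF-treated and 4.97, 5.75 and 5.67 CPM in bleogen pB1-treated libraries. Its log2FC with EGF was 0.17 (95% interval −0.10 to 0.44, edgeR adjusted p = 0.26) and with bleogen pB1 −0.18 (−0.46 to 0.09, edgeR adjusted p = 0.43). For both genes the 3 EGF-treated values were above the untreated ones in CPM, but by less than the fold limit, and in the deposited FPKM the groups overlapped.

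SPRED2 and SPRED1, which restrain RAS through neurofibromin, were not called either. SPRED2 was measured at 55.8, 49.6 and 53.35 CPM in untreated, 71.8, 58.8 and 56.8 CPM in EGF-treated and 53.2, 47.5 and 51.8 CPM in bleogen pB1-treated libraries. EGF-treated library 1 stood above the other 2, and the log2FC of 0.24 (SE 0.09, edgeR adjusted p = 0.032) passed the test but was under the fold limit. Without the fold limit 8187 of the 12394 genes tested passed with EGF. SPRED1 was measured at 27.9, 26.0 and 26.8 CPM in untreated, 30.1, 22.7 and 25.2 CPM in EGF-treated and 26.6, 25.2 and 24.8 CPM in bleogen pB1-treated libraries. The EGF-treated values of SPRED1 lay on both sides of the untreated range, with a log2FC of −0.05 (95% interval −0.26 to 0.16, edgeR adjusted p = 0.66). With bleogen pB1 the log2FC was −0.06 (95% interval −0.25 to 0.14) for SPRED2 and −0.08 (−0.29 to 0.13) for SPRED1.

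**Figure D2:**
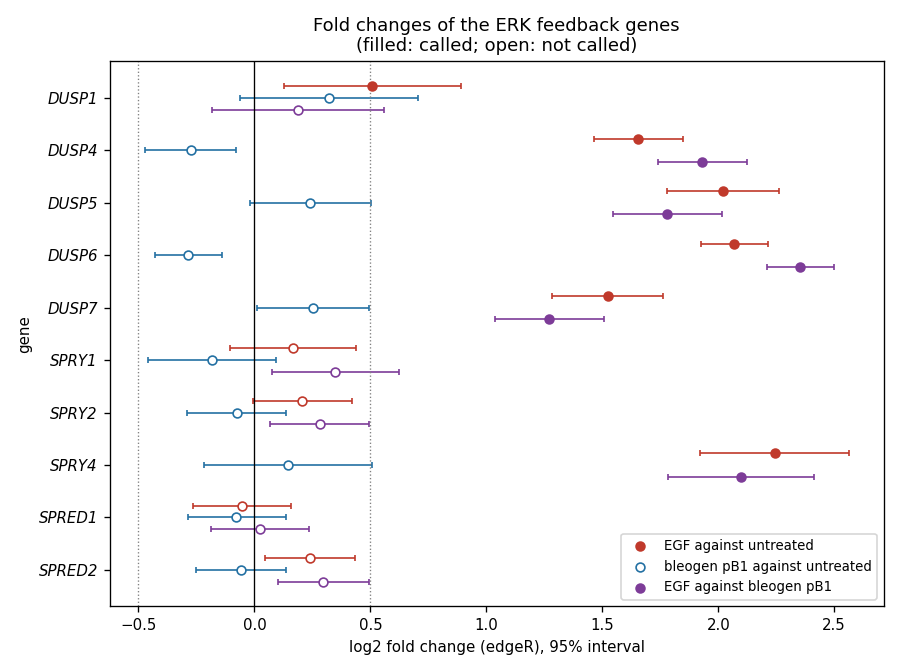
Log2 fold change (horizontal axis) of each feedback gene for EGF against untreated, bleogen pB1 against untreated and EGF against bleogen pB1, with 95% intervals from edgeR; filled points are called, open points are not, and dotted lines mark the fold limit of 0.5. SPRY4, DUSP6, DUSP5, DUSP4 and DUSP7 lie between 1.52 and 2.24 for EGF, whereas for bleogen pB1 every gene lies between −0.28 and 0.32.

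Set against all genes, 6 of the 10 feedback genes were called higher with EGF and 4 were not called, while 15.1% of the 12394 genes tested were called higher and 21.8% lower. The median log2FC of the 10 genes was 1.02, beside −0.01 for all genes tested. In 9 of the 10, all but SPRED1, the 3 EGF-treated CPM values lay above the 3 untreated ones, a pattern found in 34.5% of all genes tested. The smallest p of the exact permutation test, two-sided, of 3 against 3 libraries is 0.1, and each of these 9 genes had it. The count was 6 of 10 in the deposited FPKM, where SPRY1, SPRY2 and SPRED2 overlapped, and also 6 with upper-quartile scaling or with no scaling factors. Among all called genes 41.0% were higher with EGF, and this share was 30.2% with upper-quartile scaling, which moved the median log2FC of all genes to −0.12. DUSP4, DUSP5, DUSP6, DUSP7 and SPRY4 were called in all 17 alternatives, these scalings included.

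In bleogen pB1-treated cells 0 of the 10 feedback genes were called by edgeR or by DESeq2, and 3 (DUSP4, DUSP6 and DUSP7) had an unadjusted edgeR p under 0.05. The share of all genes with such a p was not computed, so this count has no background. Over all genes, 0.218% were called higher and 1.26% lower, so that calls were rare in this comparison. DUSP1 had its 3 values above the untreated ones and DUSP6 below, patterns found in 14.4% and 14.7% of all genes. The median log2FC of the 10 genes was −0.07, beside 0.00 for all genes. The upper 95% bound of the log2FC was at most 0.70, for DUSP1, and for DUSP6 and DUSP4 it was below 0, at −0.14 and −0.08. A p above the threshold does not show equal levels, and the intervals give the sizes that these libraries allow.

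Between the treatments, EGF-treated cells had more RNA of 5 feedback genes than bleogen pB1-treated cells. The log2FC of EGF against bleogen pB1 was 2.35 for DUSP6 (SE 0.07, edgeR adjusted p = 1.1e-10), 2.10 for SPRY4, 1.93 for DUSP4, 1.78 for DUSP5 and 1.27 for DUSP7 (largest edgeR adjusted p of the 5, 9.8e-07). SPRY1 (log2FC 0.35), SPRY2 (0.28) and SPRED2 (0.30) passed the edgeR test, with adjusted p = 0.03, 0.026 and 0.013, but not the fold limit. Without that limit 7214 of the 12394 genes tested passed in this comparison. DUSP1, at 0.19 (95% interval −0.18 to 0.56), and SPRED1, at 0.03 (−0.19 to 0.24), did not pass. For comparison, 10.8% of all genes were called higher and 18.0% lower. In 8 of the 10 genes the libraries did not overlap, all with EGF higher, as did 30.7% of all genes. The doses differed, 10 nM EGF and 1 µM bleogen pB1, so that these differences belong to the treatments as given and not to equal amounts. This comparison shares its EGF-treated and its bleogen pB1-treated libraries with the comparisons against untreated cells.

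Per gene length, the mean FPKM in untreated cells ran from 18.2 for DUSP6 through 12.2 for SPRED2, 9.32 for DUSP7, 7.82 for SPRY2, 5.68 for DUSP4, 3.78 for SPRED1, 2.60 for SPRY1, 2.30 for DUSP5 and 1.39 for DUSP1 to 0.51 for SPRY4. In this order the ranges of neighbours overlapped only for SPRY1 and DUSP5. In EGF-treated cells DUSP6 (73.3 FPKM) was followed by DUSP7 (25.6), DUSP4 (17.2) and SPRED2 (13.9), so that DUSP7 and DUSP4 had moved ahead of SPRED2. DUSP5 (8.95 FPKM) and SPRY2 (8.65) overlapped, SPRED1 (3.50), SPRY1 (2.77) and SPRY4 (2.32) followed, and DUSP1 was last at 1.89. In bleogen pB1-treated cells the order was that of untreated cells except that DUSP5 (2.76 FPKM) stood ahead of SPRY1 (2.32), and SPRED2 (11.9) and DUSP7 (11.2) overlapped. SPRY4 thus rose with EGF from the lowest mean FPKM of the 10 genes in untreated cells, and even then its FPKM was below that of SPRY1.

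**Figure D3:**
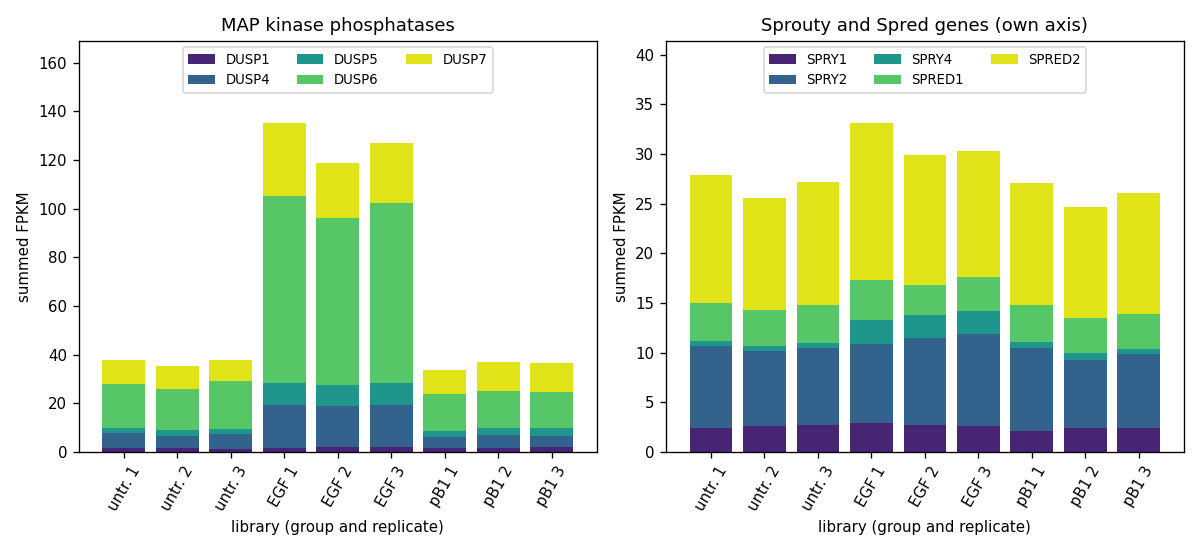
Summed FPKM in each library, divided by gene, for the 5 phosphatase genes (left) and for the 5 Sprouty and Spred genes (right, on its own axis); untr., untreated, and pB1, bleogen pB1. The summed phosphatase level was 119 to 135 FPKM in EGF-treated libraries and 33.5 to 37.9 FPKM in the others.

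Summed over the 5 phosphatase genes, the level was 36.9 ± 1.56 FPKM in untreated, 126.9 ± 8.33 FPKM in EGF-treated and 35.7 ± 1.89 FPKM in bleogen pB1-treated cells (mean ± SD, n = 3). The ratio to untreated was 3.44 for EGF (exact permutation p = 0.1, the smallest possible) and 0.966 for bleogen pB1 (exact permutation p = 0.5). DUSP6 made up 49.4% ± 2.32 of this sum in untreated cells, 57.8% ± 0.678 of it with EGF and 42.6% ± 2.58 with bleogen pB1, and none of these 3 ranges overlapped. The summed level of the 3 Sprouty genes was 10.9 ± 0.246, 13.7 ± 0.475 and 10.5 ± 0.544 FPKM in the same order, and SPRY2 made up 71.6%, 62.9% and 72.2% of it. For the 2 Spred genes it was 16.0 ± 0.914, 17.4 ± 2.19 and 15.5 ± 0.695 FPKM, with EGF-treated and untreated libraries overlapping.

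Each library also gives a gene length averaged over the transcripts that its reads were assigned to, a second readout of the same genes. DUSP1, DUSP5, DUSP7 and SPRED1 were listed with 1 transcript each and had a single length throughout. SPRED2 had a shorter mean length in the EGF-treated libraries (4406 to 4430 bases) than in the untreated ones (4443 to 4457 bases), a difference of −0.735% (exact permutation p = 0.1, the smallest possible). For the other genes the lengths of EGF-treated and untreated libraries overlapped, DUSP6 and SPRY4 included. DUSP4 lengths did not overlap between EGF-treated (5626.35 to 5630.33 bases) and bleogen pB1-treated libraries (5630.45 to 5635.17 bases, exact permutation p = 0.1). The share of all genes whose lengths do not overlap was not computed, so these small differences have no background.

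The feedback genes were then set beside 7 lists of 62 other genes of the pathway, of which 59 were tested. With EGF, 11 of the 59 (18.6%) were called higher and 12 (20.3%) lower, close to the 15.1% and 21.8% of all genes. With bleogen pB1, 0 of the 59 were called by edgeR or DESeq2, and the log2FC of the 59 lay between −0.50 and 0.54. An unadjusted edgeR p under 0.05 was found for 10 of them, a count that likewise has no background.

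Among the other dual-specificity MAP kinase phosphatases, which include DUSP9, a relative of DUSP6, and phosphatases that prefer JNK and p38, 2 of the 4 tested were lower with EGF and 2 were not called. DUSP16, a JNK phosphatase, fell from 8.86 ± 1.12 to 3.08 ± 0.771 CPM (log2FC −1.52, edgeR adjusted p = 4.4e-05), and DUSP9 from 1.72 ± 0.172 to 0.778 ± 0.221 CPM (log2FC −1.15, edgeR adjusted p = 0.0024). On the log2(FPKM + 1) scale, which compresses low levels, DUSP9 was not called (log2FC −0.40). The median log2FC of the list was −0.61, and DUSP2 was listed in no library. Of the 9 atypical dual-specificity phosphatases tested, which lack the MAP kinase docking domain, DUSP14 rose (log2FC 0.66, edgeR adjusted p = 8.4e-06), DUSP12 (−0.64) and DUSP18 (−0.58) fell, and 6 were not called. These shares, 11.1% higher and 22.2% lower, were near the 15.1% and 21.8% of all genes. The call of DUSP12 was lost without EGF replicate 2, where the log2FC was −0.47, and that of DUSP18 in 5 of 17 alternatives, among them without untreated replicate 2, EGF replicate 1 or EGF replicate 3 (log2FC −0.77 to −0.40 over all 17). SPRY3 and SPRED3, the remaining Sprouty and Spred genes, were near 1 CPM or below and were not called (edgeR adjusted p = 0.077 and 0.19).

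Of the 17 genes of the RAS-RAF-MEK-ERK cascade itself, 4 (23.5%) were called higher with EGF and 3 (17.6%) lower, near the shares of all genes, and the median log2FC was −0.08. The call of GRB2, an adaptor of the receptor and 1 of the 4, was lost in 6 of 17 alternatives, among them without EGF replicate 2 (log2FC 0.41 to 0.56 over all 17). The 3 largest rises were those of PTPN11 (0.81), the phosphatase SHP2 that carries the signal from receptor to RAS, MAP2K1 (0.75), which encodes the kinase MEK1, and HRAS (0.70). KSR1 (−1.60), a scaffold of the cascade that was measured at 2.02 ± 0.344 CPM in untreated cells, GAB1 (−0.76), a docking protein, and MAPK3 (−0.63), which encodes ERK1, fell. Of the 11 other brakes on RAS-ERK signalling tested, 1 (9.09%) rose and 3 (27.3%) fell, beside 15.1% and 21.8% of all genes. PPP2CA, a catalytic subunit of the phosphatase PP2A, had a log2FC of 0.61, whereas DAB2IP (−1.01) and LZTR1 (−0.82), which inactivate or degrade RAS proteins, and IL17RD (−0.68), a membrane inhibitor also called SEF, were lower. On the log2(FPKM + 1) scale the calls of KSR1 (log2FC −0.35) and IL17RD (−0.25) were lost.

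Genes commonly used as transcriptional output of ERK were measured beside their inhibitors. PHLDA1 rose from 132.1 ± 8.13 to 462.1 ± 11.8 CPM (log2FC 1.81, edgeR adjusted p = 6.9e-10), and the ETS factors ETV4 (1.60) and ETV5 (1.49) rose as well. EPHA4, an ephrin receptor of the same list, fell (log2FC −2.22, edgeR adjusted p = 1.3e-06), and the remaining 2 of the 6 genes were not called. In bleogen pB1-treated cells PHLDA1, ETV4 and ETV5 were at 123.3 ± 10.5, 32.3 ± 2.03 and 22.6 ± 2.83 CPM, against 132.1 ± 8.13, 34.9 ± 2.16 and 22.9 ± 1.53 CPM in untreated cells. In the p38 and JNK branches 2 of 10 genes rose, MAP2K3 (1.17), an activator of p38, and MAPK9 (0.53), which encodes a JNK, and 1 fell, MAP2K6 (−1.89), the other activator of p38. The call of MAPK9 was lost with upper-quartile scaling, with no scaling factors and with limma on FPKM.

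**Figure D4:**
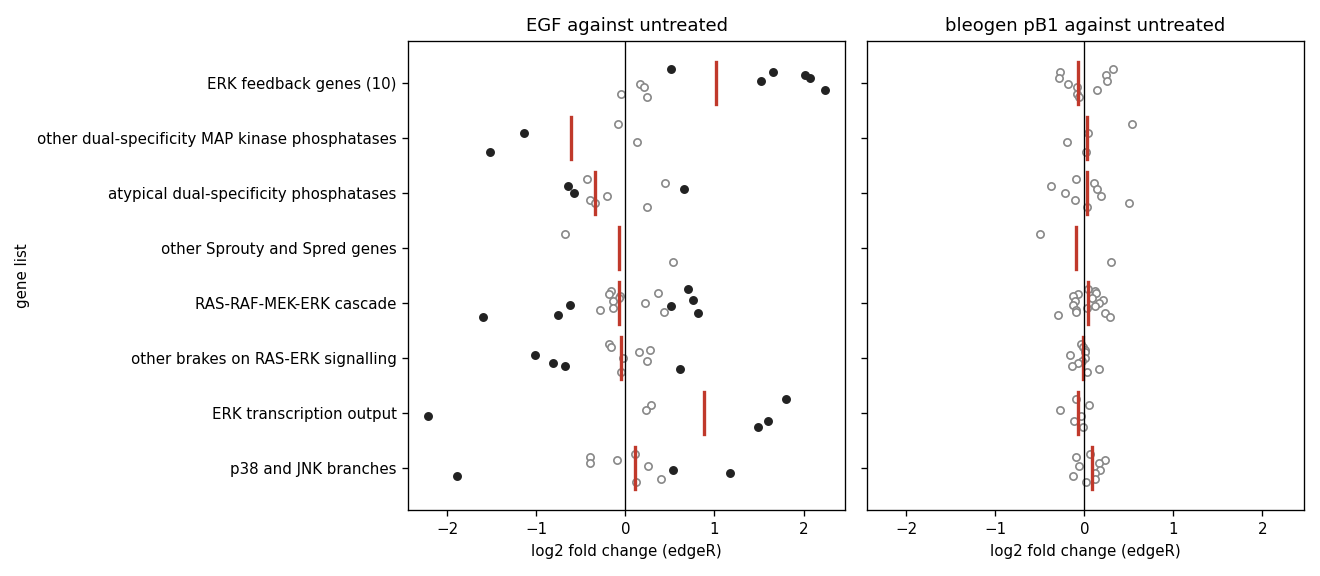
Log2 fold change from edgeR (horizontal axis) of the 10 feedback genes and of 7 lists of related genes for EGF (left) and bleogen pB1 (right) against untreated; filled points are called, open points are not, and red bars are list medians. With EGF the medians are 1.02 for the feedback genes, 0.89 for the ERK transcription output and −0.61 for the other MAP kinase phosphatases, and with bleogen pB1 no point is filled.

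For 4 of the called feedback genes, the gene with the nearest pattern over the 9 libraries was found among 10858 genes with at least 50 counts on average. Likeness was measured as the root mean square difference of log2 CPM, each gene relative to its own untreated mean. For DUSP6 the nearest gene was SLC20A1, a phosphate transporter (difference 0.122), and for DUSP4 it was NT5E, an ecto-nucleotidase (0.086). DUSP5 was nearest to ANO1, a calcium-activated chloride channel (0.122), and DUSP1 to FKBPL (0.104). The log2FC with EGF and with bleogen pB1 were 2.15 and −0.26 for SLC20A1 and 1.66 and −0.29 for NT5E.

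The libraries held 20288417 to 21320994 expected counts, at which 3 counts correspond to 0.141 to 0.148 CPM, a floor that covers counting error only, and every feedback gene was well above it in every library. The 8 keratinocyte markers were above 0 in every library, with a summed level of 11850 to 14510 CPM. KRT5 and KRT14, the keratins of basal keratinocytes, had a log2FC of −1.12 and 0.88 with EGF. The 6 fibroblast markers summed to 7.62 to 9.31 CPM in untreated, 1.30 to 1.95 CPM in EGF-treated and 6.08 to 9.08 CPM in bleogen pB1-treated libraries, 2 of the 6 were above 0 in every library, and the part of this difference in the results was not tested. The 4 melanocyte markers summed to 1.35 to 1.58 CPM in untreated, 0.75 to 1.30 CPM in EGF-treated and 0.93 to 1.53 CPM in bleogen pB1-treated libraries, with TYR at 0 and 2 of the 4 above 0 in every library. PMEL was the 1 of them tested, and it was lower with EGF (log2FC −0.80, edgeR adjusted p = 0.04), a difference whose part in the results was not tested either. Endothelial markers summed to 0.05 to 0.54 CPM and leukocyte markers to 0.14 to 0.34 CPM. In bulk RNA, fewer cells with a transcript and less transcript per cell cannot be told apart. DUSP6 shares its locus with the readthrough gene POC1B-DUSP6, and annotated non-coding RNAs overlap DUSP1, DUSP6, DUSP7, SPRY4 and SPRED2, so that reads of these pairs may be mixed, because the use of strand in counting was not stated.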

How the data were processed

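RNA of 9 HaCaT libraries (3 untreated, 3 EGF-treated, 3 bleogen pB1-treated) was extracted and sequenced at BGI from poly(A)-selected libraries that mark strand. The authors had reads mapped to GRCh38.p12 (per the labels) and deposited, for each gene and library, an expected count, an averaged gene length and an FPKM. The program that made the expected counts, and whether it used strand, are not given in the sources used here. The deposited length was used only as a second readout.

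After rounding, these expected counts entered the quasi-likelihood test of edgeR 4.0.16 (R 4.3.3) with filterByExpr, TMM factors, all 9 libraries in 1 fit and Benjamini-Hochberg adjustment. The limits were those of the study, an adjusted p up to 0.05 together with a log2FC of 0.5 or more in size. Tests of single values were exact permutation tests of 3 against 3 libraries, two-sided. For EGF against untreated, counts were simulated for 12394 genes, 200 of them with a 2-fold change. In these counts edgeR found 175 to 176 of the 200 beside 3 to 9 false calls. Changes near the fold limit, such as that of DUSP1, were not tested in this way. A share of changed genes as large as that called with EGF, 15.1% higher and 21.8% lower, was not tested either. Alternatives were DESeq2 1.42.0, limma 3.58.1 on FPKM (log2 after adding 1 or 0.1, also limited to genes with a mean FPKM of 1 or more), edgeR on 6 libraries, other scalings, count filters and fold limits, each replicate left out and a replicate block.

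The genes and lists were chosen with earlier results of these data known. Named in the text are the 10 feedback genes, up to 3 genes with the largest log2FC in each direction among the EGF calls of each list, marker genes, and the gene nearest in pattern to each called feedback gene, which for 2 of them is not reported here. Promoter windows and motif shares were taken from the RefSeq promoter table. Protein sequences were not used here.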

Additional observations from a re-analysis of the deposited data

How the results depend on the processing

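Over 17 alternatives the number of feedback genes called with EGF was 5 or 6, DUSP1 being the one lost, and 7 with adjusted p alone and no fold limit. No called result reversed. Without a fold limit the count of feedback genes called was 1 for bleogen pB1 (DUSP6, lower) and 8 for EGF against bleogen pB1. Over all 12394 genes tested, dropping the fold limit gave 8187 calls with EGF, 509 with bleogen pB1 and 7214 between them. With the limit these were 4578, 183 and 3564, and a limit of 1 gave 1892, 31 and 1458. Such limits set the count by construction. Most genes tested thus passed without a fold limit in both comparisons with EGF, as most feedback genes did. For bleogen pB1 the count over all genes ranged from 102 to 436 when 1 replicate was left out, with 102 without untreated replicate 1 or bleogen pB1 replicate 3, 109 without bleogen pB1 replicate 2 and 436 without bleogen pB1 replicate 1. The cause was not tested. The number of feedback genes whose bleogen pB1-treated and untreated libraries did not overlap was 1 with upper-quartile scaling, against 2. These scalings were chosen for the overlap counts after seeing the data. Of 510 recomputed log2FC of feedback genes, 501 kept the call, or its absence, of the gene, and 503 kept their sign. The 7 that changed sign were all of SPRED1, which was not called: 1 with EGF against untreated (0.04) and 6 with EGF against bleogen pB1 (−0.09 to −0.05). Of 399 counts in gene lists, 364 stayed within 1.5 times, where a count of 0 that stayed 0 was included. With bleogen pB1 all 7 lists started from 0 calls, so this share is raised by such counts.

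Deviations of same-numbered libraries had correlations of 0.004 to 0.045 for EGF and of 0.207, −0.03 and 0.113 for bleogen pB1 against untreated. For bleogen pB1 the mean was 0.096 for same-numbered and −0.049 for other libraries. The second value largely follows from the first, because deviations from a group mean cancel out within the group. These correlations do not show that the samples are unpaired. The numbers were not taken to pair the samples because the labels do not say what a replicate number shares. With the replicate number as a block, 6, 0 and 5 feedback genes and 4560, 186 and 3550 of all genes were called for EGF, bleogen pB1 and EGF against bleogen pB1. Depth limits DUSP1 and SPRY4 most, with under 100 counts in untreated libraries.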
